A study of Mus musculus with 9 samples.

Results

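The cytosolic ribosomal proteins are the protein part of the ribosome, which translates mRNA in the cytoplasm. The small 40S subunit reads the mRNA and the large 60S subunit joins amino acids into protein. Cells make these proteins in matched amounts, and many of their mRNAs begin with a terminal oligopyrimidine (TOP) tract, a C followed by a run of C or T, through which growth signalling by mTOR and the RNA-binding protein Larp1 sets their translation. Beta cells of the pancreatic islet translate insulin mRNA at a high rate. Genes were taken by symbol alone, as the rows beginning with Rpl or Rps followed by a digit, p or a, without rows marked as pseudogenes (-ps) and without the Rps6k kinases. The rule gave 89 of 25611 rows. These were 46 genes of the 60S subunit, 31 of the 40S subunit and 12 others, which are paralogues, retrogenes and Rps19bp1, the gene of a protein that binds Rps19 and is no ribosome subunit.

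RNA was sequenced from isolated islets of 4-week-old mice, 3 labelled knockout (Pdx1-Cre;Glis3fl/fl) and 4 control (Glis3fl/fl), and Glis3-eGFP islets from mice aged 8 weeks were used to map Glis3 binding, with an antibody to GFP. Glis3 is a zinc finger transcription factor. Both RNA groups carried the conditional allele, and the Pdx1-Cre driver, which acts across the pancreatic lineage, was present in the labelled knockouts only, so driver and deletion cannot be told apart. Glis3 itself stood at 52.1, 52.7 and 57.8 CPM (counts per 1e6 counts, after TMM scaling) in labelled knockouts 1 to 3, against 39.5, 46.8, 31.2 and 33.6 CPM in controls 1 to 4. The count over the whole gene was higher in the labelled knockouts (log2 fold change 0.52, SE 0.14, edgeR adjusted p = 0.0257), and it does not show the deletion, so the group is called labelled knockout throughout. Total counts ran from 12099365 to 22578480 in the labelled knockouts and from 18297697 to 48054551 in the controls. Labelled knockouts 1 and 2 and controls 1 and 2 had Xist reads, while labelled knockout 3 and controls 3 and 4 had reads of the Y-linked gene Ddx3y. The immediate early gene Fos was split in part the same way, at 248, 33.8 and 19.0 CPM in labelled knockouts 1 to 3 and 123, 146, 12.4 and 8.81 CPM in controls 1 to 4. Values of the ribosomal protein genes are therefore also given within each of these library types.

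Most ribosomal protein genes had a Glis3 peak at the start, in a share close to that of other well expressed genes. The list held 21254 peaks of 200 bp with no score and no replicate. A peak midpoint lay within 1 kb of the 5′ end of the gene span in 71 of 89 members (79.8%), in 37 of 46 genes of the 60S subunit and 29 of 31 of the 40S subunit. Among tested members it was 69 of 84. The share was 71.2% over all tested genes and 84.8% over tested genes with a mean of at least 100 CPM. Within 200 bp the members had a peak in 52 of 89 (58.4%), against 42.2% of all tested genes and 48.9% of those with at least 100 CPM. In 50 of the 71 members the midpoint lay inside the gene and in 21 upstream, with offsets from -468 to 617 bp and a median of 100 bp into the gene. The median over all tested genes with such a peak was 83 bp into the gene. In 28 of the 71 the peak also lay within 1 kb of the 5′ end of another row, among them Ndufa7 for Rps28, Vps52 for Rps18 and Snora21, a snoRNA gene within the span of Rpl23. Within 10 kb it was 83 of 89, against 80.5% of all tested genes and 92.5% of those with at least 100 CPM. The members with no peak within 1 kb included Rpl41, Rpl28, Rpl35, Rpl4 and Rpl36a, which are called higher below.

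Promoter windows from RefSeq (GRCm38.p6, 250 bases before to 50 after the start) matched 67 of the 89 members by gene identifier, and 57 of these started at the 5′ end given in the count table. The stretches below run from 150 bases before to 20 bases from the start, and show members with a peak within 200 bp (the first 4) beside members with none within 1 kb (the last pair). They were chosen among the members called higher, after their values were seen. Capitals mark the motif letters listed after them.
Rplp0 (chr5:115559317-115559486, plus strand): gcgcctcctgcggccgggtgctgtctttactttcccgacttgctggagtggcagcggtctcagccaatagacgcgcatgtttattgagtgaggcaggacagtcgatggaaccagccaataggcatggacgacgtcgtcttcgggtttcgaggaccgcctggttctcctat
Rpsa (chr9:120127616-120127785, plus strand): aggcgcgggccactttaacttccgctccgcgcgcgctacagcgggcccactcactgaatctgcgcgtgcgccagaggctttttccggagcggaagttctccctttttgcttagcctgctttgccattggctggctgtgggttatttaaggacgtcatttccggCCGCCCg
Rpl23 (chr11:97782420-97782589, minus strand): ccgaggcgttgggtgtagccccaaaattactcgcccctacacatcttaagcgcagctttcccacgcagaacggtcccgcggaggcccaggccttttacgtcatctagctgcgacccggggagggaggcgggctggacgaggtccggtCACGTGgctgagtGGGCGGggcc
Rps6 (chr4:86857348-86857517, minus strand): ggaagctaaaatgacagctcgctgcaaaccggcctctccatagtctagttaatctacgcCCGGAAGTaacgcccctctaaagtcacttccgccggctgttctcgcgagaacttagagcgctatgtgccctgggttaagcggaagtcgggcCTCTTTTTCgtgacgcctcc
Rpl41 (chr10:128549149-128549318, minus strand): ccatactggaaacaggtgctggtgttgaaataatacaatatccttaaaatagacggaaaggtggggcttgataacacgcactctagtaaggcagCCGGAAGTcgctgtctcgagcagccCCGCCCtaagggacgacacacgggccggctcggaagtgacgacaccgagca
Rpl28 (chr7:4792815-4792984, plus strand): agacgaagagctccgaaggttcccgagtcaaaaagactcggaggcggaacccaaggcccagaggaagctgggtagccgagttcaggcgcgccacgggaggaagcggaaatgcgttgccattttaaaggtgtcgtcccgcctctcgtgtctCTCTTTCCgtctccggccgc
The motifs were searched on both strands over the whole 300-base window. The ETS core CCGGAAGT was in 12 of 67 member windows (17.9%), against 5.31% of 18246 windows of all genes and 7.85% of those of tested genes. In the stretches above it stands in Rps6, with its peak midpoint 113 bp into the gene, and in Rpl41, whose nearest peak midpoint was 5936 bp downstream of the 5′ end. The YY1 core AAGATGGC was in 6 member windows (8.96%, against 3.26% of all and 4.42% of tested). The GC box GGGCGG was in 40 (59.7%, against 46.5% of all and 63.5% of tested), and it is the capital stretch near the start of Rpsa, the second one of Rpl41 (both on the opposite strand, as CCGCCC) and, beside the E box CACGTG, the second one of Rpl23. The E box was in 5 windows (7.46%, against 8.19% of all and 10.1% of tested) and the TATA box TATAAA in 8 (11.9%, against 13.1% of all and 7.32% of tested). Neither the Glis core TGGGGGGT nor the Gli core TGGGTGGTC was in any of the 67 windows, and they were in 1.44% and 0.23% of all windows. At such shares few matches would be found among 67 windows in any case. The windows end 50 bases after the start, while the peak midpoints of members had a median of 100 bp into the gene. Much peak sequence thus lay outside the windows, so whether the peaks hold these letters was not tested. A TOP tract, sought as a C within 5 bases of the start followed by at least 4 bases of C or T, was in 29 member windows (43.3%, against 18.9% of all and 2307 of 11508 of tested), read on the transcript strand only. Rps6 and Rpl28 carry it at the first base of the transcript. None of these motifs was in the Rplp0 stretch, though its whole window held a GC box and a TATA box. The whole window of Rpsa likewise held an ETS core that the printed stretch does not show. A match describes the letters of a window and is no binding site. The search for the TOP tract rests on the annotated start. A window without a match therefore does not show that the transcript lacks the tract.

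Expression of the family was modestly higher in labelled knockout islets, with nearly every gene on the same side. Of the 84 members that passed the filter on low counts, 21 rose and none fell. A log2 fold change above 0 was found in 82, against 50.5% of all tested genes. The median of the 84 was 0.38 on the log2 scale, or 1.30-fold, against 0.0065 over all 14529 tested genes. The 25% of members called higher compare with 8.73% of all tested genes (5.25% were called lower). Among genes with a mean of at least 100 CPM, 20 of 73 members were called higher (27.4%), against 22.1% of all 1087 such genes, so in that range the share called lies near the background. All 73 of these members had a fold change above 0, against 61.4% of the 1087 genes, whose median was 0.12. Scaled to library totals alone, which moved the median of all tested genes to 0.18, the member median was 0.57, all 84 were above 0 and 71 were called higher, against 12.8% of all tested genes. With 0 members called lower by edgeR, none was lower at an unadjusted p under 0.05 either, and DESeq2 and limma-voom called none lower. At an unadjusted edgeR p under 0.05, 51 were higher. The share of all tested genes at that threshold is not given here, so the 51 is not read as an excess over them.

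**Figure D1:**
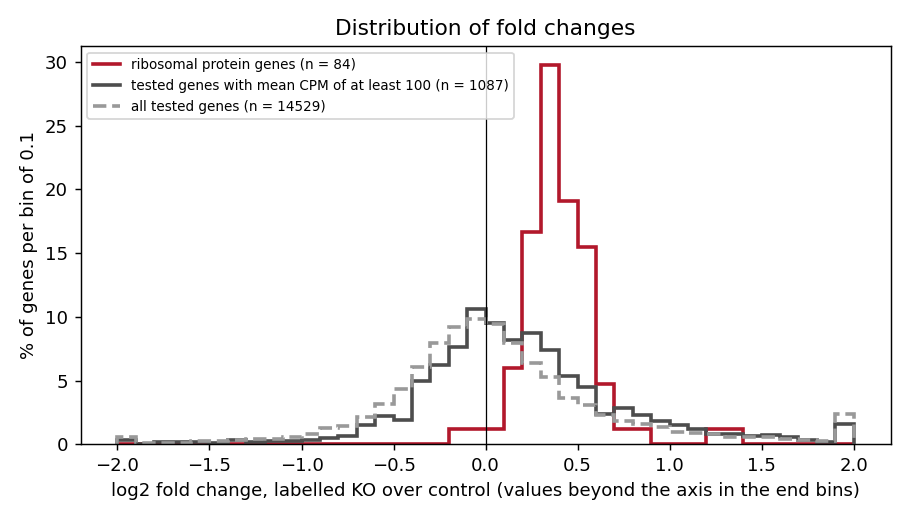
Share of genes (percent) per bin of 0.1 in log2 fold change, labelled knockout over control, for the 84 tested ribosomal protein genes (red), the 1087 tested genes with a mean of at least 100 CPM (dark) and all 14529 tested genes (dashed). The red line forms a narrow peak around its median of 0.38, to the right of both other lines.

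Members differed little from each other in their change. Over the 80 members with at least 5 CPM on average the log2 fold changes ran from -0.11 to 0.82, with an SD of 0.155 and the middle of the distribution between 0.30 and 0.49. The SD was 0.144 among genes of the 60S subunit and 0.145 among those of the 40S subunit. The SE of a single gene, for example 0.13 for Rplp0, includes differences between libraries that members share. It is therefore no measure of the spread among members. The medians were 0.40 for 45 tested genes of the 60S subunit and 0.36 for 31 of the 40S subunit. In the 60S subunit 16 rose and 29 did not pass, and in the 40S subunit 5 rose and 26 did not pass.

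Taken as a share of all counts, the 89 genes held 3.22, 2.75 and 3.02% in labelled knockouts 1 to 3, against 2.06, 1.88, 1.93 and 2.05% in controls 1 to 4. The groups did not overlap on this scale, at 2.99 ± 0.237% (SD, n = 3) in labelled knockouts and 1.98 ± 0.092% (SD, n = 4) in controls. Counting error was small beside this, with an exact (Clopper-Pearson) 95% interval of 3.21 to 3.23% for labelled knockout 1 and 2.06 to 2.07% for control 1. The denominator moved as well, since Ins2 alone took 9.58 ± 2.51% of counts in labelled knockouts and 25.4 ± 2.54% in controls. With the 10 most abundant genes left out of the denominator, Ins2, Ins1 and Iapp among them, the family held 4.94, 4.16 and 5.07% in labelled knockouts 1 to 3, against 3.90, 3.39, 3.97 and 4.61% in controls 1 to 4. The ratio of the group means was 1.51 over all counts and 1.19 without those 10 genes. On that scale, and on CPM scaled with TMM factors, control 4 stood above labelled knockout 2. The summed CPM were 28930, 24780 and 30150 in labelled knockouts 1 to 3 and 19940, 17550, 21520 and 25300 in controls 1 to 4. In bulk islets, more RNA per cell and more cells of a type with high levels cannot be told apart.

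**Figure D2:**
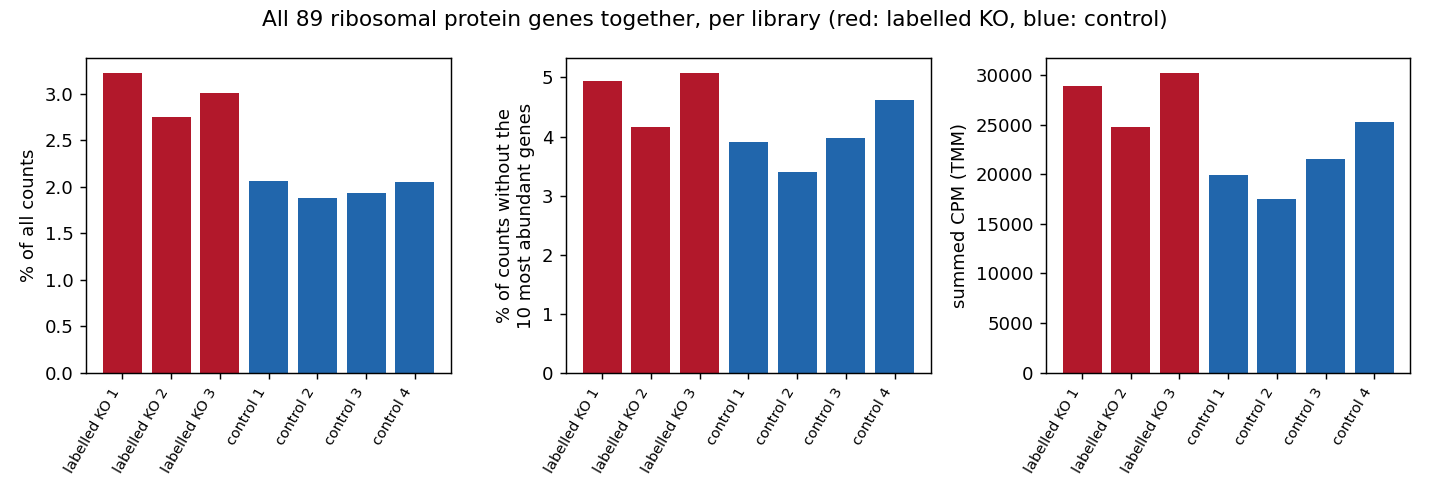
All 89 ribosomal protein genes together in each library (red: labelled knockout, blue: control), as percent of all counts, as percent of the counts without the 10 most abundant genes, and as summed TMM-scaled CPM. The groups are apart in the first panel, and in the other panels control 4 (4.61%, 25300 CPM) stands above labelled knockout 2 (4.16%, 24780 CPM).

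The order of the libraries was much the same from gene to gene. Labelled knockout 3 was the highest library for 47 of the 84 members and labelled knockout 1 for 29, against 9.95 and 22.1% of all tested genes. Control 2 was the lowest for 66 members, against 11.9% of all tested genes. Labelled knockout 2 was above control 2 in 78 members (and in 50.8% of all tested genes) but above control 4 in 30 (50.2%). The groups did not overlap in 23 members (27.4%), all with the labelled knockouts higher, against 14.0% of all tested genes. These comprised 19 of the 21 called genes, with Rpl6, Rpl12, Rpl36al and Rpl32l.

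The genes of the P stalk, the flexible arm of the 60S subunit that recruits elongation factors, all rose. Rplp0 had 976, 910 and 1060 CPM in the labelled knockouts, against 587, 581, 700 and 767 CPM in controls 1 to 4 (log2 0.58, SE 0.13, edgeR adjusted p = 0.0103). Every labelled knockout library was above every control, and the controls with Y-linked reads stood above those with Xist reads. Rplp1 was at 890, 688 and 747 CPM in labelled knockouts and 468, 482, 539 and 625 CPM in controls (log2 0.55, SE 0.14, edgeR adjusted p = 0.0170). Rplp2 was at 311, 220 and 279 CPM in labelled knockouts and 167, 159, 183 and 227 CPM in controls (log2 0.55, SE 0.15, edgeR adjusted p = 0.0284). For Rplp2 control 4 was above labelled knockout 2, so the groups overlapped.

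Among the other 60S genes the largest called change was that of Rpl41, which encodes a very short basic protein. Its levels were 718, 815 and 886 CPM in labelled knockouts and 338, 342, 546 and 596 CPM in controls 1 to 4 (log2 0.82, SE 0.19, edgeR adjusted p = 0.0117). The groups did not overlap, and controls 3 and 4 lay between the other controls and the labelled knockouts. Rpl3, a protein near the peptidyl transferase centre, was at 614, 387 and 514 CPM in labelled knockouts and 360, 299, 292 and 352 CPM in controls (log2 0.63, SE 0.16, edgeR adjusted p = 0.0147). Rpl3 showed no such split among the controls. Rpl32 was at 394, 334 and 409 CPM in labelled knockouts and 252, 215, 247 and 301 CPM in controls (log2 0.58, SE 0.14). Rpl23 was at 326, 316 and 376 CPM in labelled knockouts and 207, 182, 230 and 285 CPM in controls (log2 0.59, SE 0.15). Both were called, at edgeR adjusted p of 0.0119 for Rpl32 and 0.0192 for Rpl23. Rpl10a was at 152, 114 and 131 CPM in labelled knockouts and 91.2, 87.9, 81.0 and 102 CPM in controls (log2 0.54, SE 0.13, edgeR adjusted p = 0.0120).

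Rpl5 and Rpl11 form, with 5S rRNA, the particle that can bind Mdm2 and thereby stabilise p53. Rpl5 stood at 271, 195 and 214 CPM in labelled knockouts and 184, 152, 140 and 168 CPM in controls (log2 0.50, SE 0.14, edgeR adjusted p = 0.0328). Rpl11 stood at 342, 305 and 362 CPM in labelled knockouts and 200, 175, 251 and 296 CPM in controls (log2 0.55, SE 0.17, edgeR adjusted p = 0.0435). Neither gene had overlapping groups. In mm10 the spans are Rpl5 (chr5:107900528-107909005) and Rpl11 (chr4:136049948-136053371). The remaining called 60S genes were Rpl28 (log2 0.61), Rpl36a (0.53), Rpl17 (0.52), Rpl24 (0.48), Rpl35 (0.46) and Rpl4 (0.40). Rpl28 is the called gene beside Rplp2 whose groups overlapped, as control 4 had 214 CPM and labelled knockout 2 had 206 CPM.

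In the 40S subunit the called genes included Rps29, Rps26, Rps6 and Rpsa. Rps29, a small zinc-binding protein, had the smallest p of the family, at 348, 268 and 364 CPM in labelled knockouts and 162, 165, 182 and 262 CPM in controls (log2 0.76, SE 0.18, edgeR adjusted p = 0.0102). Rps26, which lies at the mRNA exit channel, was at 299, 332 and 313 CPM in labelled knockouts and 152, 134, 237 and 257 CPM in controls (log2 0.69, SE 0.20, edgeR adjusted p = 0.0352). Controls 3 and 4 again lay between the other controls and the labelled knockouts. Rps6, the subunit protein phosphorylated by S6 kinase downstream of mTOR, was at 248, 219 and 226 CPM in labelled knockouts and 160, 138, 146 and 201 CPM in controls (log2 0.52, SE 0.14, edgeR adjusted p = 0.0235). Rpsa, which is also known as a laminin receptor, was at 871, 759 and 743 CPM in labelled knockouts and 530, 501, 561 and 657 CPM in controls (log2 0.49, SE 0.13, edgeR adjusted p = 0.0212). In mm10 the spans are Rps29 (chr12:69157722-69159186) and Rps26 (chr10:128624529-128626506). In Rps6 and Rpsa every labelled knockout library was above every control.

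**Figure D3:**
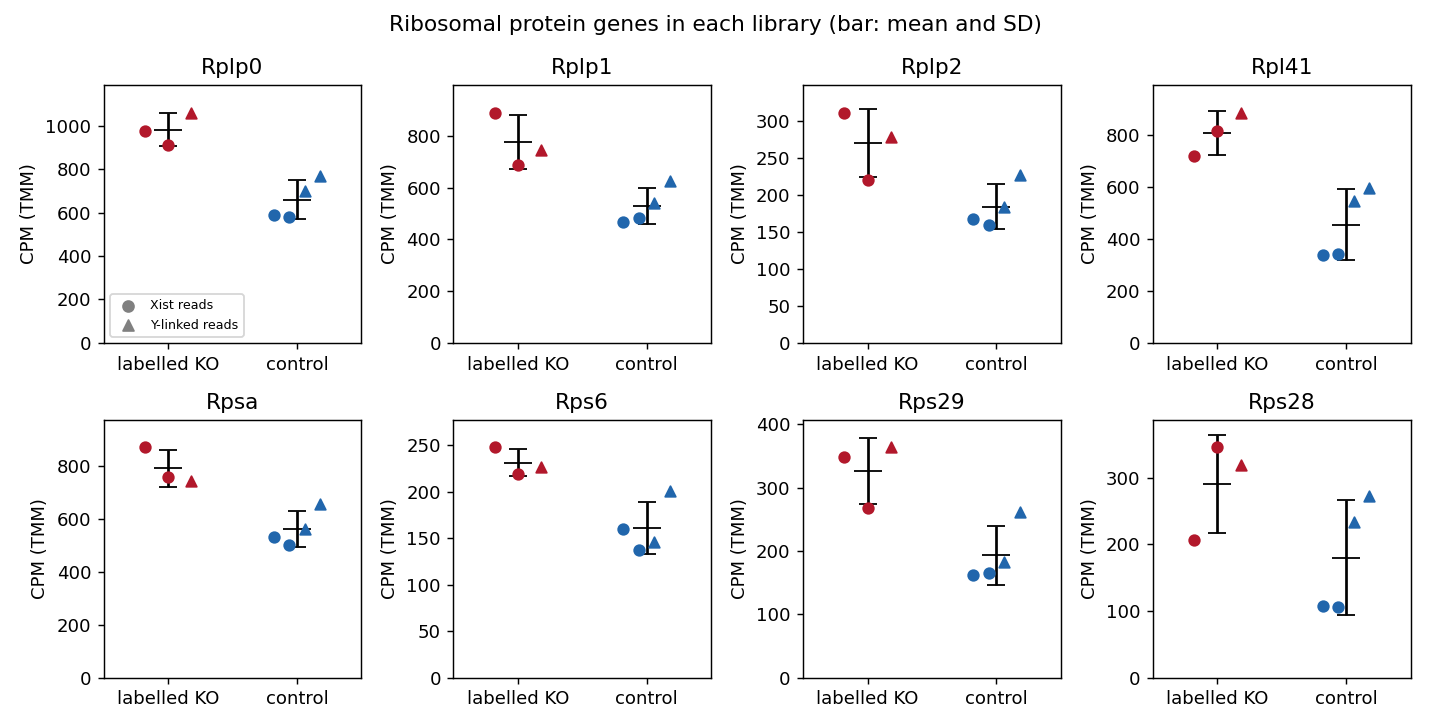
CPM of 8 ribosomal protein genes in each library, labelled knockout left and control right, with circles for libraries with Xist reads, triangles for libraries with Y-linked reads, and the mean and SD in black. The labelled knockouts lie above the controls without overlap in Rplp0, Rplp1, Rpl41, Rpsa, Rps6 and Rps29, and overlap them in Rplp2 and Rps28.

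Rps28 was as far from 0 as Rps26 and did not pass. Its levels were 207, 345 and 319 CPM in labelled knockouts and 108, 105, 234 and 273 CPM in controls 1 to 4 (log2 0.69, SE 0.40, edgeR adjusted p = 0.314). Within the libraries with Xist reads both labelled knockouts were above both controls, and among those with Y-linked reads the labelled knockout was above both controls. Fitted within the 4 libraries with Xist reads its log2 fold change was 1.35 (edgeR adjusted p = 0.0204), and within the 3 with Y-linked reads 0.33. Rps28 was named after its values were seen, and the split by library type was likewise chosen after seeing the data.

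The paralogues had no called member. Rpl22l1, which can take the place of Rpl22, was at 87.0, 56.7 and 94.0 CPM in labelled knockouts and 74.1, 55.1, 77.3 and 75.8 CPM in controls (log2 0.17, SE 0.17, edgeR adjusted p = 0.573). Rpl22 had a log2 fold change of 0.077 (SE 0.16, edgeR adjusted p = 0.801), and its sign was negative without labelled knockout 3 or without control 2. Both pairs of groups overlapped. Rpl36al was at 121, 121 and 129 CPM in labelled knockouts and 85.1, 83.6, 97.2 and 111 CPM in controls (log2 0.39, SE 0.12, edgeR adjusted p = 0.0512), beside the called Rpl36a. Its groups did not overlap, and it passed by DESeq2 and other alternatives, with adjusted p from 0.00446 to 0.184. Rps4l (log2 0.36, edgeR adjusted p = 0.0928) and Rps4x (0.26, 0.242) did not pass, and the whole span of Rps4l lies opposite Tmtc1, so without a stated strand option their reads cannot be told apart. Rps27l, which is induced by p53 in human and mouse cells, was at 81.9, 91.5 and 99.5 CPM in labelled knockouts and 51.3, 51.5, 89.3 and 95.7 CPM in controls (log2 0.34, SE 0.21, edgeR adjusted p = 0.332). Rpl7l1, which acts in ribosome assembly, had the lowest value of the family (-0.11, SE 0.12, edgeR adjusted p = 0.611), and 0.053 when libraries were scaled to their totals alone, while Rpl7 was at 0.40 (adjusted p = 0.0781). Rpl10 (0.46, edgeR adjusted p = 0.0792), Rpl39 (0.39, 0.209), Rpl37rt (0.59, 0.205) and Rps19bp1 (0.18, 0.579) also did not pass. Rpl32l, a row inside the span of Map7, averaged 0.905 ± 0.699 CPM in labelled knockouts and 0.363 ± 0.0664 CPM in controls (SD, n = 3 and 4).

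A few genes that every cell needs had next to no counts. Rpl26 had 0 counts in all libraries, Rpl34 had 320 in total, Rps27 had 476 and Rpl30 fewer than either, while the other 73 genes of both subunits had between 13220 (Rpl36a) and 137281 (Rpl4). Each of these 4 shares nearly its whole span, on the same strand, with another row of the table. Rpl26 lies with Gm15772 (99.2% of its span), Rpl30 with Gm12191 (98.4%), Rpl34 with Rpl34-ps1 (97.8%) and Rps27 with Rps27rt (99.9%), and these 4 rows had 0 counts. Whether the shared spans account for the low counts was not tested. At counts this low, the fold changes of Rpl30, Rpl34 and Rps27 are not read as changes of these genes. They include the largest value of the family, that of Rpl34 (log2 1.39, SE 0.68, edgeR adjusted p = 0.204). Rpl34 was at 7.5, 0.562 and 2.08 CPM in labelled knockouts and 1.88, 1.42, 0.670 and 1.01 CPM in controls. Rps27 (-0.092, SE 0.36) and Rpl30 (0.18, SE 0.52) did not pass. Besides Rpl26 and Rps27rt, the members below the filter were Rpl10l, known from testis, with 0 counts in all libraries, Rpl39l, with 8 counts in control 3 and 0 elsewhere, and the striated muscle gene Rpl3l, with 0, 12 and 1 counts in labelled knockouts and 5, 0, 0 and 2 in controls. A count of 0 allows up to 0.0624 CPM in the largest library and 0.248 CPM in the smallest (3 counts, counting error only). Ribosomal protein genes have many processed pseudogenes, so reads of the other members may also have been shared or lost in counting.

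**Figure D4:**
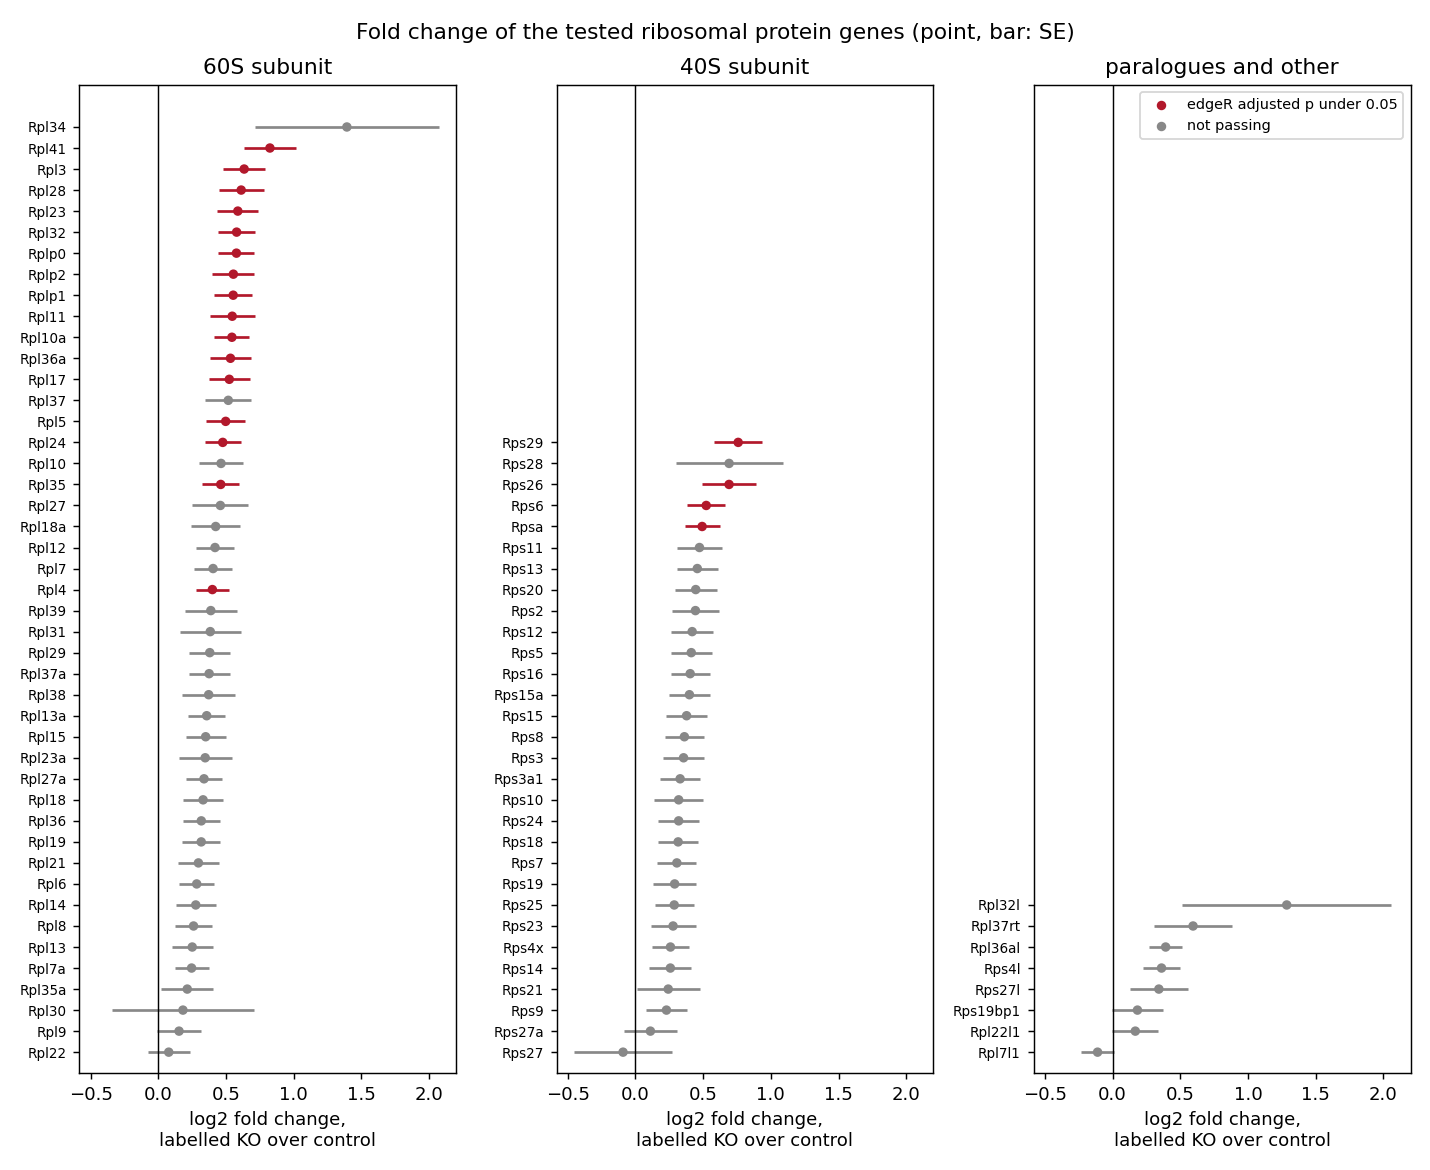
Log2 fold change (point) with SE (bar) of the tested members, apart from 1 not reported here, labelled knockout over control, in panels for the 60S subunit, the 40S subunit and the paralogues and other genes, with genes at an edgeR adjusted p under 0.05 in red. Of those shown, all but Rps27 and Rpl7l1 lie right of 0 (both are right of 0 when libraries are scaled to their totals alone), and the wide bars of Rpl34, Rpl30, Rps27 and Rpl32l go with their low counts.

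The number of called genes depended on which libraries entered, and the direction did so much less. Without labelled knockout 3 the count was 2 of 84 (2.38%, against 6.88% of all genes tested in that fit), and without labelled knockout 1 it was 5 (5.95%, against 6.75%). Without control 2 or control 3 it was 6 (7.14%, against 6.5% without control 2 and 6.95% without control 3). In these 4 fits the share called was below or close to that of all genes. It was 13 without control 1 (15.5%, against 7.46%), 31 without labelled knockout 2 (36.9%, against 7.63%) and 36 without control 4 (42.9%, against 7.93%). The median log2 fold change ran from 0.29 to 0.48 over these fits, and 78 to 83 members stayed above 0. None of the 21 genes was called in all 7 of them. Rps29, Rplp0, Rpl41 and Rpl32 were called in 6, each missing only without labelled knockout 3, where the edgeR adjusted p was 0.0596 for Rps29, 0.0589 for Rplp0, 0.0612 for Rpl41 and 0.0637 for Rpl32. Their adjusted p over all 20 alternatives ran from 5.4e-06 to 0.0596 for Rps29, 6.38e-05 to 0.0589 for Rplp0, 1.89e-05 to 0.0626 for Rpl41 and 0.000274 to 0.064 for Rpl32.

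Within each library type the family was higher in the labelled knockouts. This split uses the same libraries and was chosen after seeing the data, so it is no independent repeat. In the 4 libraries with Xist reads, 2 of each group, the median was 0.49, with 81 of 84 above 0 and 20 called, against 4.98% of all genes tested there. In the 3 with Y-linked reads, where the single labelled knockout is assumed to vary like the others, the median was 0.35 with 83 above 0 and 36 called, against 7.45% of all genes tested there. With the library type as a covariate 47 members were called higher (56%, against 9.95% of all tested genes), with a median of 0.44, and all 21 genes called without it were among them. Rplp0 then had a log2 fold change of 0.63 (SE 0.10, edgeR adjusted p = 0.00116), Rpl41 of 0.96 (SE 0.13, edgeR adjusted p = 0.00026) and Rps28 of 0.98 (SE 0.24, edgeR adjusted p = 0.0186). In the same fit the libraries with Y-linked reads were above those with Xist reads by a median of 0.25 over the members, led by Rps28 (0.85), Rpl37rt (0.69) and Rps21 (0.66). No member passed for that term (0.0482% of all genes were higher and 0.0138% lower). At an unadjusted edgeR p under 0.05 there were 36 of 84 members, against 1405 of all 14529 genes. The difference of the labelled knockout effect between library types was called for no member and no gene (edgeR interaction term). At an unadjusted p under 0.05 there were 10 of 84 members, against 852 of all 14529 genes. Library type and Fos moved together in the controls, and their parts were not tested apart.

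Other genes of translation were read from lists chosen with earlier results of these data known. Among ribosomal proteins that the symbol rule leaves out, Rack1, a scaffold on the 40S subunit, rose (log2 0.48, SE 0.13, edgeR adjusted p = 0.0226), and Fau, which encodes a ribosomal protein fused to a ubiquitin-like part, did not pass (0.28, edgeR adjusted p = 0.247). Of 15 genes of elongation factors and other mRNAs with a TOP tract, 4 rose, none fell and 11 did not pass, with a median of 0.35 and 14 above 0. The 4 were Eef1b2 (0.54) and Eef1g (0.54) and Eef1d (0.40), all of the exchange factor that reloads elongation factor eEF1A, and Npm1 (0.38), a nucleolar chaperone. Of 31 tested initiation factor genes 1 rose, Eif3g (0.36), and the median was 0.15. Of 46 ribosome biogenesis genes 1 fell, the pseudouridine synthase gene Dkc1 (log2 -0.67, SE 0.17, edgeR adjusted p = 0.0160), none rose and the median was 0.021. Among 8 snoRNA host genes 1 rose, Gas5, a noncoding RNA that itself begins with a TOP tract (0.50, edgeR adjusted p = 0.0258), with a median of 0.016. Of 16 growth regulators none rose and 2 fell, Rictor of mTOR complex 2 (-0.67) and Akt1 (-0.36), with a median of -0.20. Of 12 genes of the p53 response Cdkn1a (0.71, edgeR adjusted p = 0.00393) and Ccng1 (0.45) rose and 10 did not pass (median 0.16). The mitochondrial ribosomal proteins, which serve the separate ribosome of that organelle, had 5 of 78 higher and 1 lower, with a median of 0.17 and 57 above 0. Over all tested genes 8.73% were higher, 5.25% lower and the median was 0.0065, and no list was tested against another.

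Summed markers of some other cell types were higher in the labelled knockouts without overlap (duct, stromal and macrophage), and those of others overlapped or were not called. Acinar marker sums overlapped and were at 2978, 15900 and 4268 CPM in labelled knockouts 1 to 3 and 946, 4865, 928 and 5782 CPM in controls 1 to 4, with 0 of 20 called (19 above 0). Labelled knockout 2, the library with the most acinar RNA, had the lowest family sum of its group (24780 CPM). Control 4, with the largest acinar sum of the controls, had the highest family sum of its group (25300 CPM). Control 2, with the next largest acinar sum (4865 CPM), had the lowest family sum of all libraries (17550 CPM). On the acinar mean log2 used as the covariate, these 2 controls were alike, at 6.441 for control 2 and 6.429 for control 4. With the acinar mean as a covariate the member median was 0.42 and 82 were above 0, and 4 of 84 were called (4.76%), below the 5.79% of all tested genes. Stromal markers were at 445 to 579 CPM in labelled knockouts and 305 to 396 CPM in controls (2 of 8 higher, Dcn and Rgs5), and macrophage markers at 215 to 230 and 122 to 159 CPM (1 of 8 higher, C1qa). Duct markers were at 774 to 959 CPM in labelled knockouts and 258 to 314 CPM in controls (1 of 7 higher, Spp1). Endothelial markers were at 690 to 860 CPM in labelled knockouts and 635 to 698 CPM in controls (0 of 9 called), and lymphocyte markers stayed between 2.26 and 7.66 CPM in all libraries (0 of 2 called). Beta cell markers summed to 189400 to 299700 CPM in labelled knockouts and 329900 to 551000 CPM in controls, with 6 of 10 lower and 1 higher. The part of these cell types in the ribosomal protein values was not tested beyond the acinar covariate.

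Members with and without a peak at the start had like values, which are given without a test. Of 69 tested members with a peak within 1 kb, 16 rose (23.2%), with a median log2 fold change of 0.38, and of 15 without one, 5 rose (33.3%), with a median of 0.40. Over all tested genes 7.59% of those with such a peak and 11.5% of those without were called higher, with medians of -0.034 and 0.17. Rpl41, whose printed start holds no peak, had the largest called change, while Rps29 had a peak midpoint 78 bp upstream of the 5′ end, Rpsa 51 bp and Rplp0 74 bp into the gene. Peaks and expression came from mice of different ages and genotypes.

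**Figure D5:**
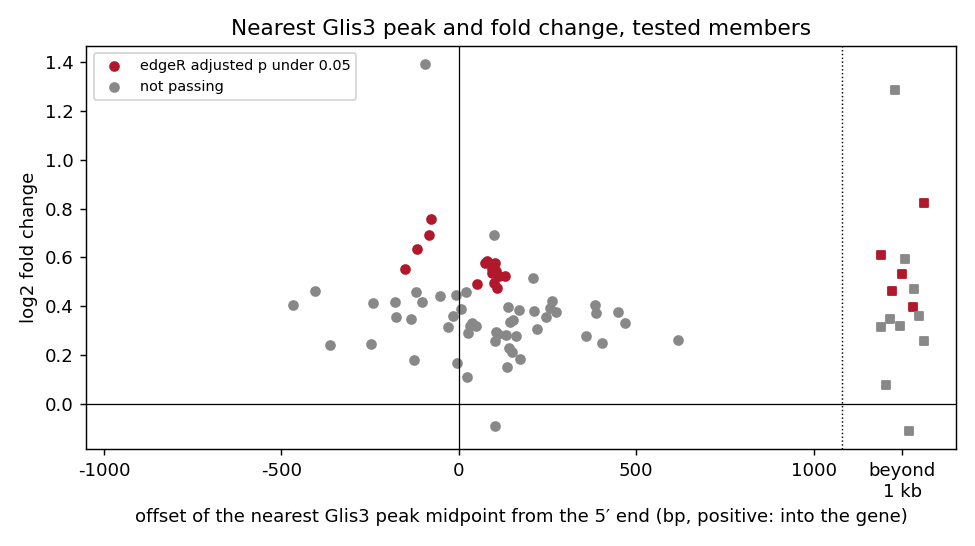
Log2 fold change of the 84 tested members, labelled knockout over control, against the offset in bp of the nearest Glis3 peak midpoint from the 5′ end (positive into the gene), with genes whose nearest peak lies beyond 1 kb as squares at the right and genes called higher in red. Called genes are found both near a peak and among the squares, 16 of 69 and 5 of 15.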

How the data were processed

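The count table held whole-number reads per gene, which the authors deposited with no normalisation, and its headers give symbols, Entrez identifiers and positions in mm10. The submitters' processing notes list, with no roles, featureCounts 1.5.0-p1, STAR 2.5, Picard 1.110, Bowtie 1.2, bedtools 2.24.0, HOMER 4.9.1 and cutadapt 1.2.1. For the strand option, nothing is given in the sources used here. The peak list, as deposited, holds intervals of 200 bp and no score. By the design text each RNA library is 1 mouse.

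Genes passing filterByExpr were compared by edgeR 4.0.16 (R 4.3.3) with TMM factors and the robust quasi-likelihood test, and p-values were adjusted by Benjamini-Hochberg over 14529 genes at a threshold of 0.05. Fold changes are labelled knockout over control on the log2 scale. Total counts ran from 12099365 to 48054551, and intervals and floors cover counting error only. The procedure was tested on simulated data. Of the table's rows, 988 repeated a symbol, none of them among the members. Alternatives were other scalings and filters, DESeq2 1.42.0, limma-voom 3.58.1, covariates and left-out libraries. Replicate counts differed beyond sampling noise. Members and lists were chosen with earlier results of these data known. Some genes are not reported here by name, though they stay in all counts. Otherwise the text names the called members (the 10 with the smallest p, the P stalk, Rpsa, Rps6 and paralogue pairs with library values), the 3 largest and 3 smallest fold changes, members below the filter and up to 4 called genes of each other list. Rps28, Rpl37rt and Rpl30 were added after their values were seen. No table of transcript lengths was used, so levels of different genes are not compared.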

Additional observations from a re-analysis of the deposited data

Results flagged for a closer look

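In 2 of the 38 named ribosomal protein genes whose control libraries were checked, 1 control stood far from the other 3. Rpl22l1 was at 55.1 CPM in control 2, while controls 1, 3 and 4 had 74.1, 77.3 and 75.8 CPM. Rps4l was at 63.6 CPM in control 3, while controls 1, 2 and 4 had 48.28, 45.96 and 46.52 CPM. Chance flags about 5% of such groups.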

How the results depend on the processing

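No alternative called a ribosomal protein gene lower. The 21 genes called higher were 71 when libraries were scaled to their totals alone, which moved the median of all tested genes by 0.18. The count was 33 with DESeq2 (39.3%, against 10.8% of all genes). It was 4 with the acinar marker mean as a covariate (4.76%, below the 5.79% of all genes). At an edgeR adjusted p under 0.01 it was 0. At an unadjusted edgeR p under 0.05 it was 51, given without the share of all genes. Chosen after seeing the data, the covariate for Xist or Y-linked reads gave 47 (56%, against 9.95% of all genes). The 3 libraries with Y-linked reads, with a single labelled knockout assumed to vary like the others, gave 36 (42.9%, against 7.45%). Leaving out 1 library gave 2 to 36 (2.38 to 42.9%, against 6.5 to 7.93% of all genes). With the replicate number as a block the count was 61 (72.6%, against 9.53% of all genes). Same-numbered libraries correlated at 0.126, 0.08 and 0.092, and the other pairs at -0.139 to 0.124. These values are low, and the numbers were not taken as pairs. Same-numbered libraries also shared the library type, Xist or Y-linked, so the block and that type cannot be fully told apart. The share of counts was 1.51 times that of controls over all counts and 1.19 times (a difference of 0.754 percentage points of a smaller denominator) without the 10 most abundant genes. Signs turned for a few genes near 0 that did not pass: Rpl7l1 to 0.053 and Rps27 to 0.060 when scaled to totals alone, and Rps27 to 0.21 in the libraries with Y-linked reads. With 1 library left out the ranges were -0.12 to 0.19 for Rpl22, -0.0049 to 0.36 for Rpl22l1, -0.30 to 0.072 for Rps27 and -0.023 to 0.43 for Rpl30. The causes were not tested. Over the named genes and lists, 692 values kept their side of the threshold and direction, 131 lost the call, 39 gained it, 11 list counts moved and 8 reversed.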

Other observations

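The row of the ribosomal RNA precursor, Rn45s, was at 46100, 25560 and 23820 CPM in labelled knockouts 1 to 3 and 16960, 27630, 18960 and 28210 CPM in controls 1 to 4 (log2 0.47, edgeR adjusted p = 0.238). The groups overlapped, with labelled knockout 1 above every other library.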
